A study of Ovis aries with 16 samples.

Results

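Iron is taken up, stored and exported by a small set of proteins, and 10 of their genes are described here in liver and skeletal muscle of sheep. The genes were TFRC and TFR2 (transferrin receptors), SLC11A2 (the ferrous iron carrier DMT1), SLC40A1 (ferroportin), CP (ceruloplasmin), FTH1 and FTL (ferritin chains), HMOX1 (haem oxygenase 1), HAMP (hepcidin) and BMP6. They were picked by name, as genes of iron and haem handling, after a comparison of BPA with control animals in these same libraries was known. The set was thus selected on BPA-minus-control values, and CP in muscle is one of the genes that stood out there. BPA-minus-control values of the 10 genes are therefore descriptions. Which of them passed the threshold of the fit over all genes is given beside the share of all genes that passed, and is no independent evidence. The contrast of liver with muscle was not used in the choice and is tested, though HAMP entered that fit through its liver level alone. Of the 28524 rows of the gene table, 9 carried one of the symbols, and SLC11A2 was found by its RefSeq gene number, so that all 10 genes were present.

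In mammals, iron travels in plasma bound to transferrin and enters cells through TFRC, while TFR2 on hepatocytes senses iron-loaded transferrin. Cells store surplus iron in ferritin and release it through ferroportin, and ceruloplasmin, a copper enzyme secreted by hepatocytes, oxidizes the released iron so that transferrin can bind it. Hepcidin, a hormone made by hepatocytes under the control of BMP6 from liver endothelium, binds ferroportin and causes its breakdown. Skeletal muscle holds much iron in myoglobin and mitochondria, and the liver is the main iron store and the main source of the plasma proteins of iron transport.

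The animals were female Suffolk sheep. Mothers of the BPA group were injected under the skin each day, from day 30 to day 90 of gestation, with bisphenol A, a plasticizer with oestrogen-like activity, at 0.5 mg/kg/day in corn oil. Mothers of the control group received corn oil alone. Tissues of all offspring, in both groups, were taken near 21 months of age following a fast of 48 hours, in the late follicular phase, 24 hours after the second of a pair of prostaglandin F2α injections given 11 days apart. Liver was cut at the left lobe's tip, and muscle came from the vastus lateralis. Each of the 4 groups (BPA liver, control liver, BPA muscle and control muscle) had 4 RNA-seq libraries depleted of ribosomal RNA, and both tissues came from the same 8 animals, numbered 910, 918, 977 and 984 (BPA) and 902, 908, 924 and 928 (control). Values are normalized read counts, that is, reads per gene divided by a size factor per library. They are not divided by gene length, so levels are compared between libraries and not between genes.

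Several libraries stood apart before any result on iron genes. Recovered totals were 4.66 to 17.92 M (mega) reads in BPA livers and 4.39 to 19.28 M in control livers, against 15.15 to 26.54 M in BPA muscles and 16.16 to 28.54 M in control muscles. Defining markers fitted the tissue labels: the 11 muscle markers in the table summed to 558 to 1493 in BPA livers and 450 to 970 in control livers, and to 6763350 to 8359300 in BPA muscles and 6679590 to 9558200 in control muscles. The summed level of 15 hepatocyte markers, led by ALB, was 289047 to 432600 in the livers of BPA animals 918, 977 and 984, against 1349480 in the liver of BPA animal 910. It was 62485 in the liver of control animal 902, against 1367280 to 1468400 in the other 3 control livers. The liver of 902 also had the highest fibroblast marker sum, 120041. The 74 ribosomal protein genes, a list added after the data were seen, summed to 187616 in BPA liver 910 and to 20722 to 31549 in the other 3 BPA livers. In control livers they summed to 80413 in 902 and to 189800 to 208966 in the other 3.

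CP, the plasma ferroxidase, was far higher in liver than in muscle, and lower in every BPA muscle than in every control muscle. In liver, CP stood at 38235, 23748, 10959 and 10137 normalized reads in BPA animals 910, 918, 977 and 984, and at 4762, 23917, 19406 and 18782 in control animals 902, 908, 924 and 928. In muscle, it stood at 220, 111, 153 and 139 in the same BPA animals, and at 408, 342, 319 and 320 in the controls. Every liver lay above every muscle, BPA and control livers overlapped, and all 4 BPA muscles lay below all 4 control muscles. Liver exceeded muscle by 6.12 on the log2 scale (SE 0.33, limma adjusted p = 9.29e-11), where limma was run on log2(value + 1) and p-values were adjusted over all genes tested. The muscle mean was 1.34% of the liver mean.

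TFR2, the hepatocyte sensor of transferrin iron, had the largest difference between tissues of the 10 genes. Liver TFR2 stood at 6118, 2567, 4278 and 3823 normalized reads in BPA animals 910, 918, 977 and 984, and at 1040, 5853, 4916 and 4675 in control animals 902, 908, 924 and 928. Muscle TFR2 stood at 43.5, 16.1, 29.5 and 30.0 in BPA animals and at 48.7, 32.9, 28.2 and 31.1 in controls. BPA and control animals overlapped in each tissue, and the lowest liver, control 902, was still far above the highest muscle, which came from the same animal. The liver-minus-muscle log2 difference was 6.85 (SE 0.32, limma adjusted p = 1.53e-11). TFRC, which brings transferrin iron into most cells, was spread much more evenly. Liver TFRC stood at 684, 1788, 725 and 1109 in BPA animals and at 3529, 1207, 1747 and 1199 in controls, and muscle TFRC at 387, 717, 462 and 512 in BPA animals and at 2284, 549, 429 and 596 in controls. Control animal 902 had the highest TFRC in both tissues. Liver exceeded muscle by 1.09 on the log2 scale (SE 0.34, limma adjusted p = 0.00925), with overlapping values.

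SLC11A2 differed least between tissues. It stood at 207, 156, 186 and 137 normalized reads in livers of BPA animals and at 320, 238, 205 and 199 in livers of controls. Its muscle values were 145, 173, 192 and 170 in BPA animals and 151, 149, 136 and 159 in controls. Liver and muscle overlapped, and the liver-minus-muscle log2 difference was 0.33 (SE 0.14, limma adjusted p = 0.0416). That call ended (adjusted p = 0.0863) with the animal as a replicate block, and also when animal 902, 908, 910, 924 or 977 was left out (highest adjusted p = 0.116), with log2 differences between 0.25 and 0.39 over all 8 leave-outs. SLC40A1, the cellular iron exporter, stood at 3010, 1283, 996 and 793 in BPA livers and at 2327, 2838, 3628 and 3918 in control livers. In muscle it lay between 603 and 724 in BPA animals and between 562 and 661 in controls, with the smallest SD relative to its mean of the 10 genes over the 8 muscles. Every liver was above every muscle, and the difference was 1.70 on the log2 scale (SE 0.22, limma adjusted p = 3.38e-06).

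Of the ferritin chains, FTH1 was lower in liver than in muscle, and FTL did not pass the threshold. FTH1, the heavy chain with ferroxidase activity, stood at 12749, 1459.5, 1990 and 1980 normalized reads in livers of BPA animals 910, 918, 977 and 984, and at 13432, 12956, 12365 and 13772 in livers of control animals 902, 908, 924 and 928. In muscle, FTH1 stood at 19468, 15710, 19398 and 18332 in BPA animals and at 18011, 26187, 20412 and 15920 in controls. Each liver was below each muscle, by a mean of 1.61 on the log2 scale over both exposure groups (SE 0.34, limma adjusted p = 0.000541). In means, the gap was wider in BPA animals, with 4544 in liver and 18227 in muscle, than in controls, with 13131 and 20133. BPA liver 910, at 12749, lay within the range of the control livers. The difference between the BPA effects did not pass for FTH1 (limma adjusted p = 0.202). FTL, the light chain, stood at 4633, 573, 721 and 282 in BPA livers and at 528, 4623, 4907 and 5249 in control livers. In muscle it stood at 549, 938, 632 and 789 in BPA animals and at 647, 646, 866 and 572 in controls. The livers of BPA 910 and of controls 908, 924 and 928 were above every muscle, whereas the other 4 livers lay among or below the muscles. The liver-minus-muscle log2 difference of FTL, 1.16 (SE 0.53), missed the threshold (limma adjusted p = 0.0593). It passed without animal 902 (log2 difference 1.56, adjusted p = 0.00546) or 984 (1.46, adjusted p = 0.0314).

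The ratio of the 2 ferritin transcripts follows one gene against the other within a library, so that library scaling cancels. FTH1 per FTL was 2.75, 2.55, 2.76 and 7.01 in livers of BPA animals 910, 918, 977 and 984, and 25.5, 2.80, 2.52 and 2.62 in livers of control animals 902, 908, 924 and 928. In muscle it was 35.4, 16.8, 30.7 and 23.2 in BPA animals and 27.9, 40.5, 23.6 and 27.8 in controls. In 6 of the 8 livers the ratio lay between 2.52 and 2.80, including livers whose ferritin levels were far apart, and control liver 902 had a ratio within the muscle range. The log2 ratio was lower in liver than in muscle in 8 of 8 animals, with a mean liver-minus-muscle difference of -2.78 (SD 1.26). The ratio was formed after the values had been seen, so it is given with no test. Ferritin genes have processed copies in mammalian genomes, and the mapping of shared reads is not given in the sources used here, so both levels carry that uncertainty.

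HMOX1, the inducible enzyme that opens the haem ring and frees its iron, was lower in liver than in muscle. It stood at 734, 87.4, 250 and 353 normalized reads in BPA livers and at 586, 1342, 831 and 1116 in control livers. In muscle it stood at 800.02, 1216, 1923 and 1374 in BPA animals and at 1107, 1654, 1793 and 1438 in controls. The livers of controls 908, 924 and 928 reached into the muscle range and the other 5 did not. Over both exposure groups, liver was lower by a mean of 1.44 on the log2 scale (SE 0.34, limma adjusted p = 0.00125). Means were 356 in BPA livers and 1328 in BPA muscles, against 969 in control livers and 1498 in control muscles.

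The ratio of the highest to the lowest liver was larger for HAMP than for the other 9 genes. It stood at 2191, 75.0, 497 and 241 normalized reads in livers of BPA animals 910, 918, 977 and 984, and at 49.0, 974, 1343 and 1184 in livers of control animals 902, 908, 924 and 928. The highest liver, BPA 910, and the lowest, control 902, belonged to opposite groups. In muscle HAMP rested on 6, 8, 4 and 11 reads in BPA animals and on 7, 11, 8 and 28 reads in controls, below the mean of 10 normalized reads set for a test within muscle. The filter of the tissue fit took the mean over all 16 libraries, so HAMP entered that fit through its liver level alone. Its call between tissues is therefore a description. Liver exceeded muscle in every pair of libraries, by 5.50 on the log2 scale (SE 0.69, limma adjusted p = 2.46e-06), and the muscle mean was 1.18% of the liver mean. BMP6, which signals to hepatocytes to make hepcidin, ran the other way: 61.9, 43.7, 84.8 and 58.8 in BPA livers and 155, 89.5, 67.5 and 69.8 in control livers. Muscle BMP6 was 148, 146, 197 and 227 in BPA animals and 153, 138, 138 and 136 in controls. Control liver 902 was the single liver that reached the muscle range, and liver was lower than muscle by 1.09 on the log2 scale (SE 0.19, limma adjusted p = 0.000105).

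**Figure D1:**
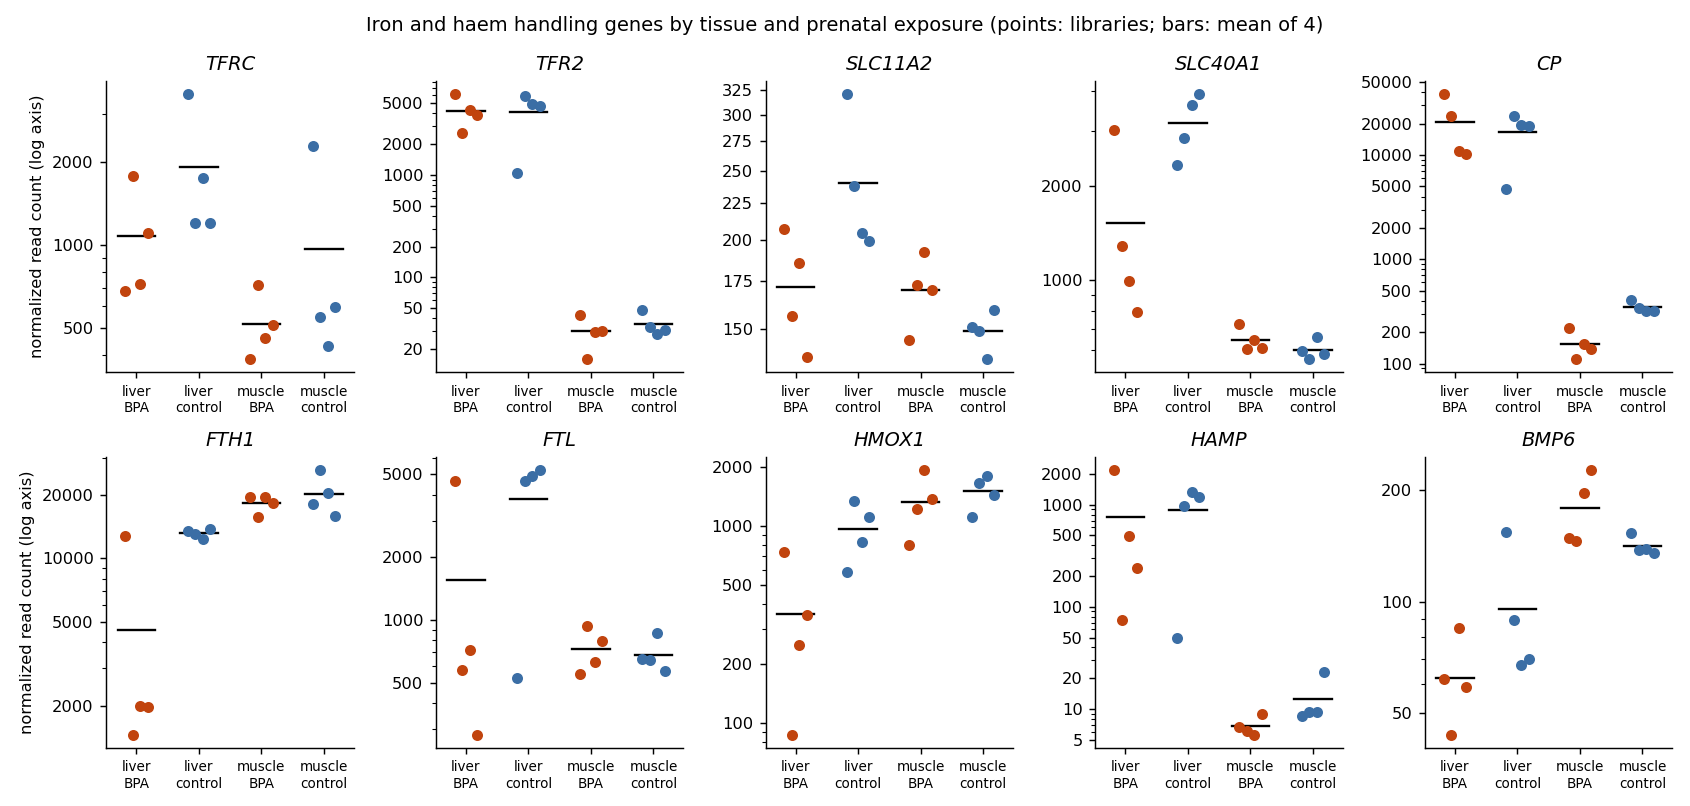
Normalized read counts (log axis, a separate range for each gene) of the 10 iron and haem handling genes in the 4 BPA livers, 4 control livers, 4 BPA muscles and 4 control muscles. Points are libraries and bars are means of 4. CP, HAMP, TFR2 and SLC40A1 are higher in every liver than in every muscle and FTH1 is lower, while CP is lower in every BPA muscle than in every control muscle.

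Between tissues, 6 of the 10 genes were higher in liver (TFR2, CP, HAMP, SLC40A1, TFRC and SLC11A2) and 3 were lower (BMP6, HMOX1 and FTH1), at an adjusted p under 0.05. That is 9 of 10, where 71.4% of the 15995 genes tested passed the same threshold, so the share by itself says little about iron genes. The 9 include HAMP, which entered the fit through its liver level alone. Values of liver and muscle did not overlap for 5 of the 10, against 41.6% of all genes tested. The median log2 difference was 1.13 for the 10 genes and 0.06 for all genes. Leaving out each animal in turn kept the direction of all 10 genes, and the calls that ended or began were those of SLC11A2 and FTL given above. Lowest and highest values over these leave-outs were 5.98 and 6.42 for CP, 6.71 and 7.22 for TFR2, and 1.54 and 1.81 for SLC40A1.

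**Figure D2:**
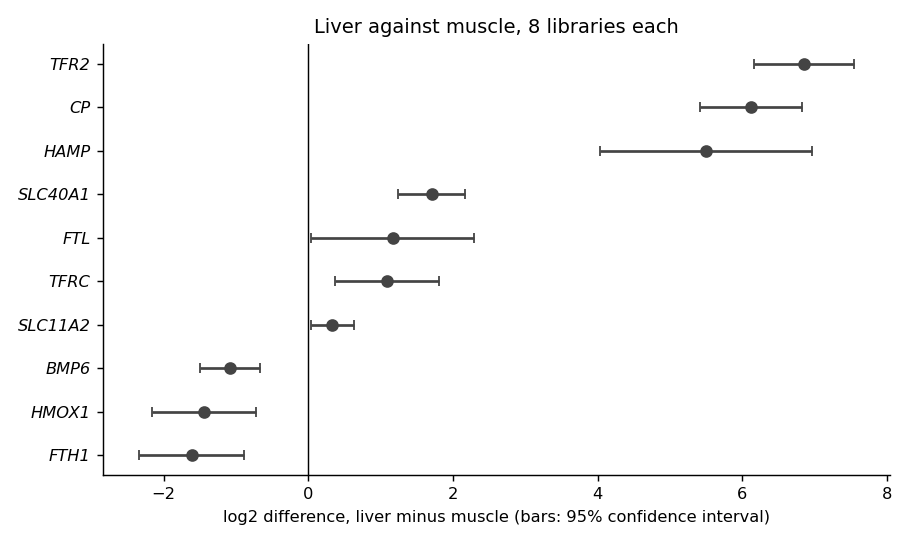
Log2 difference, liver minus muscle, of the 10 genes over 8 libraries a tissue, with unadjusted 95% confidence intervals, ordered by size. TFR2, CP and HAMP lie between 5.50 and 6.85, while BMP6, HMOX1 and FTH1 lie between -1.09 and -1.61. The interval of FTL just clears 0, but its p adjusted over all genes, 0.0593, did not pass.

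Other genes of the same pathways are given from lists drawn up by role, to be read against the 71.4% of all genes tested that passed between tissues. Of 11 tested genes of iron uptake and reduction, 8 were higher and 2 lower in liver. They included TF, the plasma carrier transferrin (log2 difference 5.94, limma adjusted p = 9.46e-08), and SLC39A14 and SLC39A8, carriers that can take up iron not bound to transferrin (4.44 and 4.17, adjusted p = 2.38e-11 and 3.58e-11). Of 20 genes of hepcidin control, 8 were higher and 6 lower. TMPRSS6, the protease that restrains hepcidin, averaged 5583 in liver and 31.9 in muscle (log2 difference 7.39, adjusted p = 2.53e-13), and SMAD4, a relay of the BMP signal, was lower in liver by 1.46 (adjusted p = 2.64e-08).

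Against the same 71.4% of all genes, all 7 tested genes of copper supply passed, with 4 higher and 3 lower in liver, among them ATP7B, which loads copper into ceruloplasmin (log2 difference 6.36, limma adjusted p = 1.34e-14). Of 18 genes of iron-sulfur cluster assembly, 2 were higher and 10 lower in liver, for example ISCA1 (-2.56, adjusted p = 6.19e-08). Of 12 genes of haem transport and breakdown, 8 were higher and 2 lower in liver. HPX, the plasma haem carrier hemopexin, was higher (6.09, adjusted p = 1.7e-08), whereas BLVRA, biliverdin reductase A, which acts next after haem oxygenase, was lower as HMOX1 was (-4.69, adjusted p = 7.36e-09). BLVRB, another biliverdin reductase, went the other way and was higher in liver (0.80, adjusted p = 0.0344). Of 13 genes of haem synthesis 5 were higher and 4 lower. Of 7 genes that sense iron or handle ferritin 1 was higher, ACO1 (1.65, adjusted p = 0.000116), and 3 were lower. These included NCOA4, the cargo receptor for ferritin breakdown (-1.03, adjusted p = 0.00116), and PCBP1, an iron chaperone for ferritin (adjusted p = 1.31e-05). All 10 tested acute phase genes were higher in liver.

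By exposure, 4 of the genes were lower in the livers of 3 BPA animals than in the liver of the fourth and in the controls. FTH1 lay at 1459.5 to 1990 in the livers of BPA animals 918, 977 and 984, while BPA animal 910 and the 4 controls lay at 12365 to 13772. SLC40A1 lay at 793 to 1283 in the same 3 livers and at 2327 to 3918 in the other 5. HMOX1 lay at 87.4 to 353 in the 3 and at 586 to 1342 in the other 5, and SLC11A2 at 137 to 186 and at 199 to 320. For these 4 genes the 3 livers did not overlap the other 5, whereas for the other 6 genes they did. The 3 livers were singled out after the data were seen. Of the 15689 genes tested in liver, 31.5% separated them from the other 5 in either direction, and 15.4% did so with lower values, as these 4 genes did. Nothing about iron genes is read from 4 of 10. The same 3 livers had the lowest ribosomal protein sums, as given above, and their macrophage marker sums (12 of 14 markers in the table) were 1353 to 2513, against 6263 in BPA liver 910 and 6771 to 10349 in the controls. Their fibroblast marker sums (10 of 10 in the table) were 3954 to 5098, against 8988 in BPA liver 910 and 8808 to 120041 in the controls. Sinusoidal endothelial marker sums (9 of 10 in the table) overlapped. They were 8430 to 16965 in the 3 livers, 11638 in BPA liver 910 and 13087 to 16334 in the controls. Among single macrophage markers, MSR1, MARCO and CLEC4F overlapped as well. Macrophages of the liver recycle haem iron and carry much ferroportin and HMOX1. In bulk tissue, fewer cells of a type and less RNA per cell cannot be told apart, and the part of macrophages, fibroblasts or the low ribosomal protein level in these values was not tested.

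**Figure D3:**
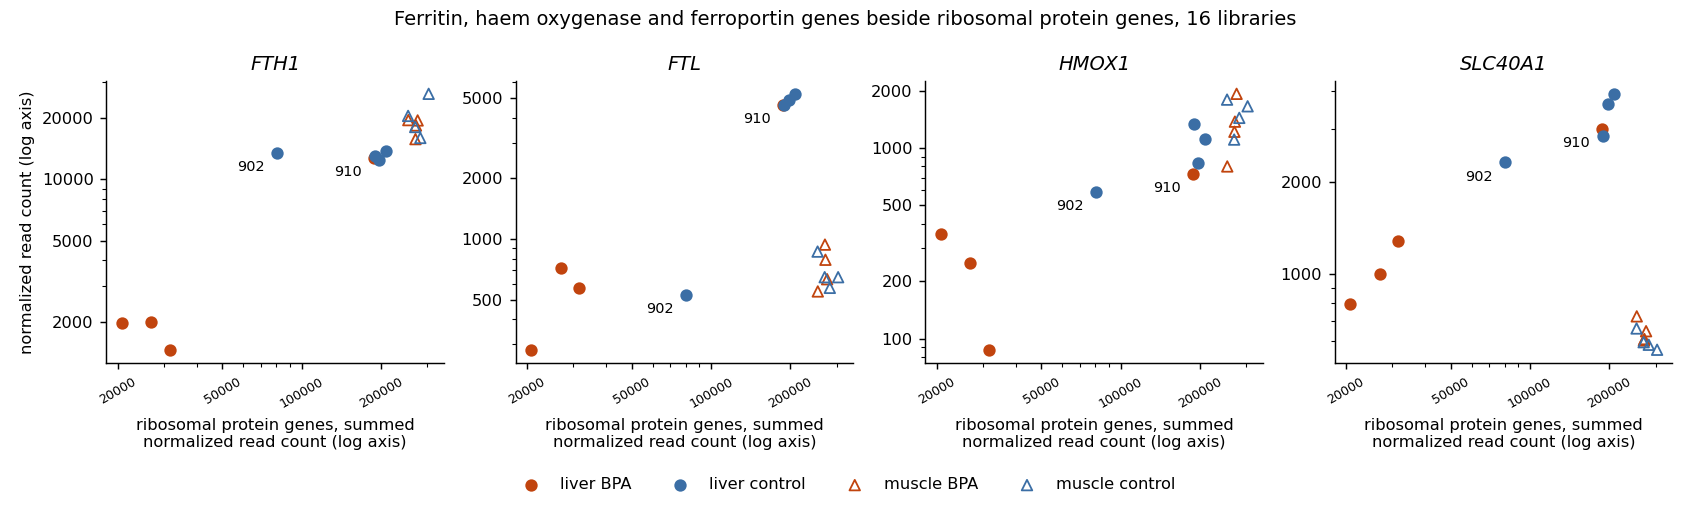
FTH1, FTL, HMOX1 and SLC40A1 (normalized read count, log axes) against the summed level of 74 ribosomal protein genes in the same library, for BPA and control livers (filled circles) and BPA and control muscles (open triangles). BPA livers 918, 977 and 984 sit at the lower left with sums of 20722 to 31549, while BPA liver 910 sits among the controls, and control liver 902 lies between them with a low FTL.

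The BPA-minus-control log2 differences in liver were -2.16 for FTH1 (SE 0.64), -1.75 for HMOX1 (SE 0.58), -1.71 for FTL (SE 0.95), -1.24 for SLC40A1 (SE 0.44) and -0.79 for TFRC (SE 0.45). BMP6, HAMP and SLC11A2 had -0.56, -0.49 and -0.48, and CP and TFR2 had 0.32 and 0.22. In all, 8 of the 10 estimates were below 0, with a median of -0.68 against -0.01 for all genes tested. By limma, 0 of the 10 passed, against 0% of the 15689 genes tested in liver, and no gene of the 10 had groups that did not overlap, against 7.61% of all genes. At an unadjusted p under 0.05 there were 3 of the 10 and 2838 of the 15689 genes tested by limma. With edgeR 0 genes and 0 of the 10 passed, and with DESeq2 196 genes and none of the set, 2 of which had no adjusted p there. Without BPA animal 910, 2595 of the 15741 genes tested passed, and 3 of the 10 with them: FTH1 (-2.87), HMOX1 (-2.22) and SLC40A1 (-1.63). Without control animal 902, none of the 10 passed. HAMP in liver was at -1.34 without 910, at -1.62 without control 902 and at 0.28 without BPA 918, and CP in liver was at -0.21 without 902. Since the set was chosen on this contrast, nothing is read from these counts.

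**Figure D4:**
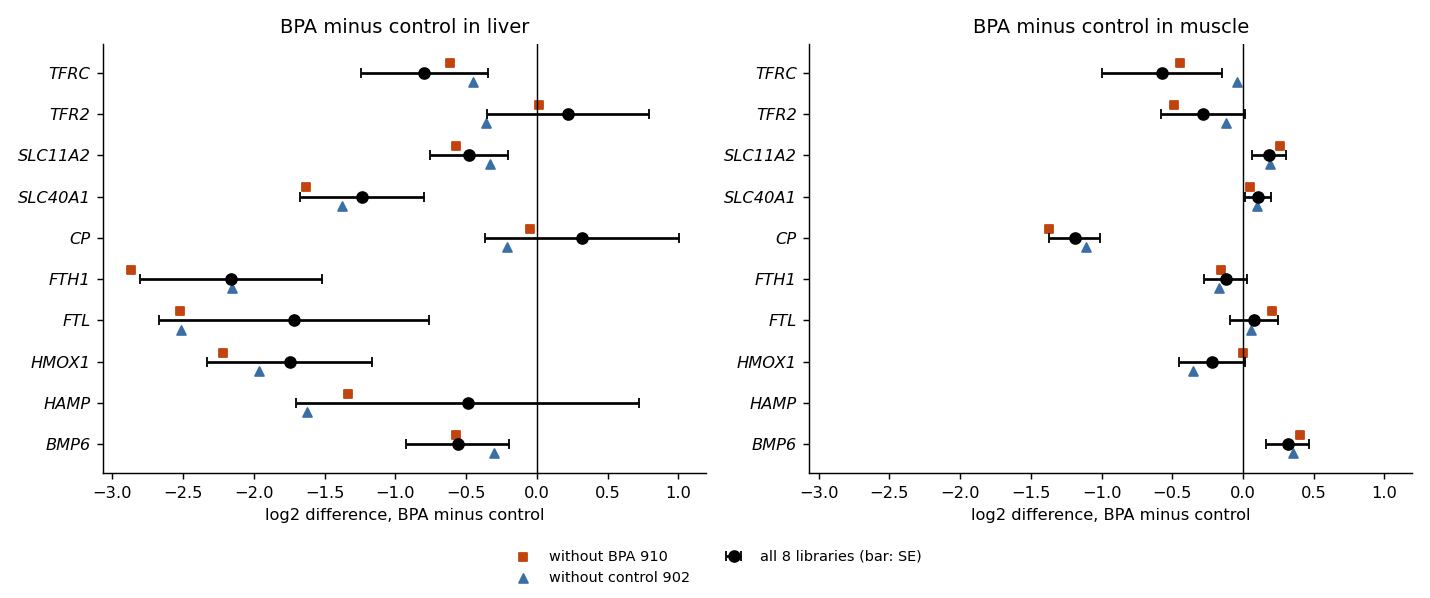
Log2 difference, BPA minus control, of the 10 genes in liver and muscle with all 8 libraries of the tissue (circles, bars are SE), without BPA animal 910 (squares) and without control animal 902 (triangles). HAMP was too low in muscle to be tested. In liver FTH1, FTL, HMOX1 and SLC40A1 lie below 0 in all 3 fits while CP and TFR2 lie on either side of it, and in muscle CP lies at -1.19 and the others lie between -0.57 and 0.32.

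No gene of the pathway lists passed in liver. Of 11 tested genes of iron uptake 10 had negative estimates (median -0.74), of 12 genes of haem transport and breakdown 10 (median -0.58) and of 18 genes of iron-sulfur assembly 14 (median -0.39), and 0 passed in any list. Those with the smallest p included HFE, an iron sensor mutated in haemochromatosis (300.03 ± 186 in BPA livers and 558 ± 105 in control livers, SD, n = 4 each), BLVRB, a biliverdin reductase (396 ± 374 in BPA livers and 1074 ± 431 in controls), and FDX1, a ferredoxin (413 ± 191 in BPA livers and 752 ± 53.2 in controls). NEO1, a partner of the hepcidin co-receptor hemojuvelin, had the opposite sign (485 ± 40.1 in BPA livers and 331 ± 27.5 in controls). ATP7B stood at 4801, 4478, 5697 and 6558 in BPA livers and at 2195, 4242, 3996 and 3685 in control livers. It did not overlap between groups, as 7.61% of all genes tested did not, and was picked out after its values were seen. Of 7 genes of copper supply 2 did not overlap, 1 higher (ATP7B) and 1 lower. The same held for 1 of 19 genes of hepcidin control (NEO1), 1 of 12 of haem transport and breakdown and 2 of 18 of iron-sulfur assembly (FDX1 and ISCA1). Medians were -0.03 for hepcidin control, -0.37 for iron sensing and ferritin handling, -0.16 for haem synthesis, 0.14 for copper supply and -0.37 for acute phase genes.

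In muscle, CP was lower in BPA animals by 1.19 on the log2 scale (SE 0.18). The means were 155.6 ± 46.0 in BPA muscles and 347 ± 41.8 in control muscles (SD, n = 4 each), a ratio of 0.448. It was 1 of 9 tested genes of the set that passed with limma, where 0.129% of the 14706 genes tested passed, and 1 of 9 whose groups did not overlap, where 4.53% of all genes did. CP was among the values that chose the set, so this is a description. Without BPA animal 910 CP still passed, and leaving out any one of the other 7 animals ended the call, with log2 differences between -1.37 and -1.04. It passed with DESeq2 and not with edgeR. The other 8 tested genes had log2 differences between -0.57 (TFRC) and 0.32 (BMP6), and the median of the 9 was -0.12. The TFRC estimate was -0.04 without control animal 902, whose muscle held 2284.

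The 5 named genes whose log2 values followed CP most closely over the 8 muscle libraries, among 12651 genes compared, were C5 (Pearson r = 0.990), CRNKL1 (0.973), C4BPA (0.973), FGB (0.972) and HPX (0.967). These r values are descriptions over libraries that also differ by exposure. All 10 tested acute phase genes had negative estimates in BPA muscle (median -0.69). The fibrinogen chains, 3 of the 10, passed, where 0.129% of the 14706 genes tested passed. Groups did not overlap for 6 of the 10, all lower in BPA, against 4.53% of all genes tested. The list was drawn up with earlier results of these data known, so these counts are descriptions. FGA averaged 714 ± 108 in BPA muscles and 1633 ± 96.5 in control muscles, FGB 837 ± 177 in BPA muscles and 2106 ± 168 in controls, and FGG 518 ± 93.4 in BPA muscles and 1277 ± 98.1 in controls (SD, n = 4 each). HPX averaged 156 ± 33.9 in BPA muscles and 265 ± 18.4 in controls and did not pass. Its groups did not overlap, as 4.53% of all genes tested did not.

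All 15 hepatocyte markers, a list that shares FGB and SERPINA1 with the acute phase genes, had negative estimates in BPA muscle. Their median was -0.48, against -0.002 for all genes tested. The 1 that passed was FGB, already given above, where 0.129% of all genes tested passed. The sum of the 15 was 4917 to 10260 in BPA muscles and 9395 to 15542 in control muscles, and none of the 15 was at 0 in every library of a group. The muscle mean of ALB, a hepatocyte product, was 1.16% of its liver mean, beside 1.34% for CP, 1.18% for HAMP and 0.781% for TFR2. The other hepatocyte genes looked at ran from 0.571% for TMPRSS6 and 0.837% for AHSG, through 1.01% for HPX and SERPINA1, 1.08% for TF and 1.17% for ATP7B, to 1.495% for FGA, 1.99% for FGB and 2.11% for FGG. By contrast, muscle held 49.5% of the liver mean for TFRC, 26.5% for SLC40A1, 26.2% for FTL and 77.4% for SLC11A2, and 217% for FTH1, 213% for HMOX1 and 204% for BMP6.

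Set against ALB in the same library, CP was 43.5, 49.3, 41.1 and 41.2 per 1000 in muscles of BPA animals 910, 918, 977 and 984, and 52.6, 73.5, 68.5 and 72.6 per 1000 in muscles of control animals 902, 908, 924 and 928. The groups did not overlap, which is a description of a gene chosen on this contrast. In the livers of the same animals CP per 1000 of ALB was 69.8, 120, 97.6 and 111 in BPA animals and 456, 35.3, 26.2 and 26.8 in controls. BPA livers thus stood above 3 of the 4 control livers while BPA muscles stood below all 4 control muscles. The liver ratio also moves with ALB, which was 548171, 197662, 112257 and 91332 in those BPA livers. In the control livers ALB was 10447, 677303, 739640 and 702068, and CP itself overlapped between BPA and control livers. FGB per 1000 of ALB was 205 to 316 in BPA muscles and 278 to 502 in control muscles, with overlap, and HPX, TF and SERPINA1 overlapped as well. AHSG, another hepatocyte product, was 76.5 to 97.2 per 1000 of ALB in BPA muscles and 67.7 to 75.3 in control muscles, higher without overlap. Whether the CP reads in muscle came from muscle cells or from elsewhere was not tested.

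**Figure D5:**
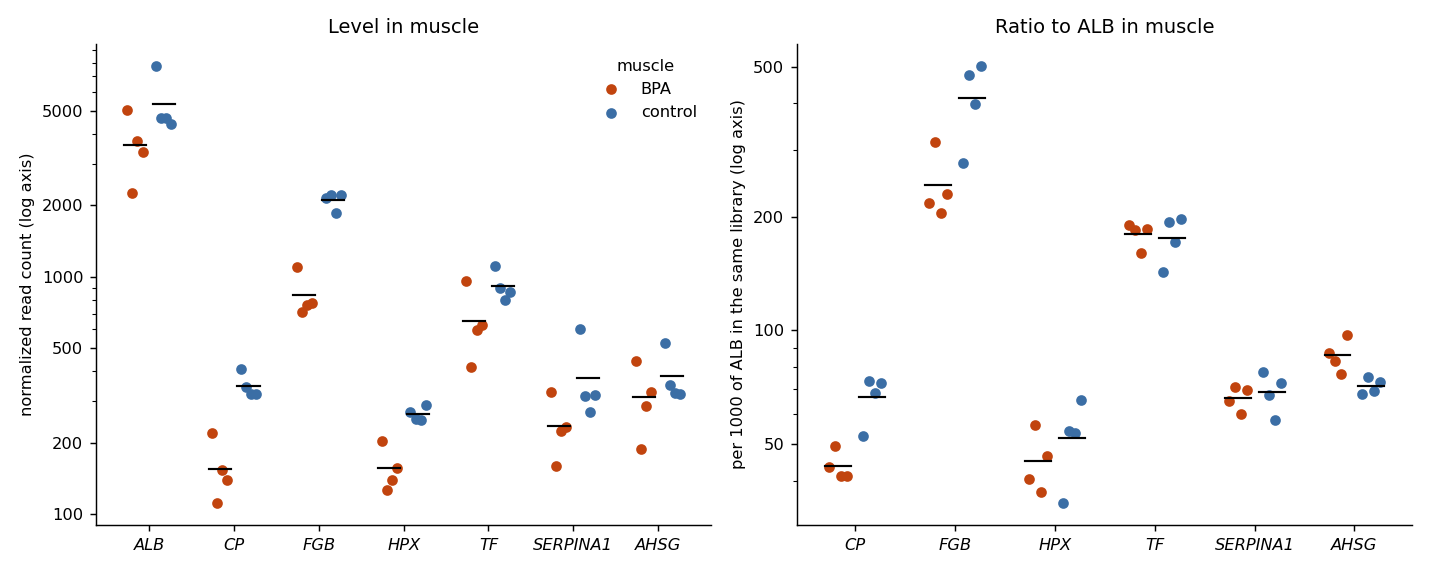
CP and plasma protein genes of hepatocytes in the 4 BPA muscles and 4 control muscles, as normalized read counts (left, log axis) and per 1000 of ALB in the same library (right, log axis). Points are libraries and bars are means. CP per 1000 of ALB is 41.1 to 49.3 in BPA muscles and 52.6 to 73.5 in control muscles, FGB, HPX, TF and SERPINA1 overlap between the groups, and AHSG is higher in BPA muscles.

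Outside the acute phase genes, no gene of the pathway lists passed in muscle. The medians were 0.01 for iron uptake, 0.02 for hepcidin control, -0.11 for iron sensing and ferritin handling, -0.03 for haem synthesis, -0.11 for haem transport and breakdown, -0.08 for iron-sulfur assembly and 0.01 for copper supply. TF averaged 649 ± 228 in BPA muscles and 918 ± 132 in control muscles (SD, n = 4 each). HJV, hemojuvelin, which skeletal muscle expresses strongly, averaged 2348 ± 275 in BPA muscles and 2884 ± 173 in control muscles, and ATOX1, the copper chaperone that serves ATP7B, 137 ± 9.13 in BPA muscles and 177 ± 18.1 in control muscles. No erythroid marker passed in either tissue. The 7 of 11 in the table, led in BPA muscles by HBB, summed to 46.3 to 247 in BPA muscles and 36.0 to 43.8 in control muscles, and to 47.0 to 125 in BPA livers and 18.8 to 72.2 in control livers. HBB, a globin chain, stood at 175, 19.95, 8.42 and 68.1 in BPA muscles and at 6.09, 0.843, 3.52 and 3.27 in control muscles. The part of blood in these values was not tested.

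The BPA effect in liver minus that in muscle was 1.51 for CP on the log2 scale (SE 0.67), where CP had 0.32 in liver and -1.19 in muscle. It was -2.04 for FTH1 (SE 0.69), -1.79 for FTL (SE 1.06), -1.53 for HMOX1 (SE 0.68) and -1.34 for SLC40A1 (SE 0.44). BMP6 and SLC11A2 had -0.88 and -0.66, TFRC -0.22 and TFR2 0.50. With limma, 0 of the 9 genes passed, against 0% of 13677 genes tested. An unadjusted p under 0.05 was reached by 6 of the 9 and by 2661 of the 13677 genes tested. With edgeR 0 genes passed and with DESeq2 148, none of them in the set, where 1 gene had no adjusted p. Without animal 910, 3020 of the 13653 genes tested passed, 5 of them in the set (SLC40A1, SLC11A2, HMOX1, FTL and FTH1). These differences are again a description of genes chosen on the exposure contrast.

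HAMP in liver was followed most closely by ITIH1 (Pearson r = 0.992 over 8 livers, among 13231 genes compared), TTC32 (0.989), CARM1 (0.988), ATG13 (0.988) and NFS1 (0.987). These too are descriptions, over libraries that differ in depth and in hepatocyte marker level. BPA liver 910, with the highest HAMP and CP, also had 222157 normalized reads of FGB and 54694 of HPX, against 87012 to 102863 and 28329 to 29873 in controls 908, 924 and 928. Its ALB, 548171, was below the 677303 to 739640 of those 3 controls. Some of the 10 genes overlap others in the RefSeq annotation: CP overlaps HPS3 and LOC114110966, and FTL overlaps TULP2. BMP6 overlaps LOC114109777, and SLC11A2 overlaps LOC114113747, LOC114114251 and LOC101116975. HPS3 was 349 to 1272 in BPA livers and 223 to 307 in control livers, and TULP2 74.9 to 591 in BPA livers and 89.3 to 174 in control livers. Whether reads were counted by strand is not given in the sources used here, so shared reads cannot be told apart. That holds in muscle too, where CP was only 111 to 408.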

How the data were processed

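RNA-seq was run on liver and vastus lateralis of 8 sheep, each library from a separate animal within its tissue. A SMARTer low-input kit was applied to RNA freed of ribosomal RNA, per the labels' protocols. The tools listed are DESeq2 1.24.0, FastQC and Trimmomatic, per the submitters' processing notes. Aligner, counter, annotation, build and strandedness: not given in the sources used here. The authors deposited 1 table of normalized signal per gene for all 16 libraries together, read counts divided by a size factor per library. Dividing each column by the value of 1 read gave whole reads for at least 99.979% of values in every library (tolerance 0.1 read). Totals of 4.39 to 28.54 M reads limit precision most in the shallow livers. Of the table's names, 22250 matched RefSeq symbols, and 6969 of 10441 LOC names were found by gene number. No column was left out.

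Genes with a mean of at least 10 were tested on log2(value + 1) with limma 3.58.1 (R 4.3.3, eBayes with trend) and Benjamini-Hochberg adjustment over all genes tested, at a threshold of 0.05. Differences on this scale understate changes of low genes. Each tissue was fitted alone for BPA against control. A fit of all 16 libraries gave liver against muscle, and the difference between the BPA effects, named for the 10 genes only. The scripts were tested on simulated data. edgeR 4.0.16 and DESeq2 1.42.0 on recovered reads, other pseudocounts, filters and scalings, leave-outs and the animal as a block were alternatives. The members, lists and tests were chosen with earlier results of these data known. Named genes were the 10 members, from each pathway list up to 3 passing genes by smallest p (or the 2 with the smallest p), the 5 genes most like CP in muscle and HAMP in liver, and the highest markers. Sheep numbers pair liver and muscle per the labels. Liver and muscle of one animal, each taken as deviations from the group mean, correlated across genes by -0.101 to 0.118, and 1 of 8 livers correlated best with its own muscle. A pathway gene outside the 10 members that the naming rule also selects is not reported here.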

Additional observations from a re-analysis of the deposited data

Results flagged for a closer look

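In each group of 4, a library was noted when it lay far from the other 3 relative to the group's range. The 10 genes and 2 ratios gave 48 such groups, and chance alone notes about 1 in 20. There were 9.

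In liver, BPA animal 910 lay above its group for FTH1, with 12749 against 1459.5 to 1990, and for FTL, with 4633 against 282 to 721. Control animal 902 lay below its group for liver FTL, with 528 against 4623 to 5249. Its ratios in liver lay above those of its group: FTH1 per FTL was 25.5 against 2.52 to 2.80, and CP per 1000 of ALB was 456 against 26.2 to 35.3. FTH1 per FTL was 7.01 in the liver of BPA animal 984, against 2.55 to 2.76 in its group.

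In muscle, control animal 902 lay above its group for TFRC, with 2284 against 429 to 596, and for BMP6, with 153 against 136 to 138. HAMP in muscle was 22.9 in control animal 928 against 8.52 to 9.39, on 28 reads.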

How the results depend on the processing

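Depth was lowest in the livers that stood apart, and an effect in liver had to be large against the spread to pass. With DESeq2, 196 genes passed in liver, 131 in muscle and 148 for the difference between the BPA effects, against 0, 19 and 0 with limma. In muscle, CP did not pass with edgeR, leaving 0 of the set. Leaving out 1 library or animal gave 0 to 2595 genes in liver (0 to 3 of the set), 11 to 31 in muscle (0 to 1), 10701 to 11694 between tissues (8 to 10) and 0 to 3020 for the difference (0 to 5). The highest counts in liver and for the difference came without BPA animal 910. With the animal as a replicate block, 11091 of the 15995 genes tested passed between tissues, 8 of them in the set, and 0 for the difference. It changed no call of the set besides SLC11A2. Within 1 tissue no block applies, since each animal is in 1 group.

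Some signs turned. TFRC in the difference between effects was at 0.13 with edgeR and 0.11 with DESeq2. With a covariate in the liver fit that splits libraries at a depth of 15 M reads, chosen after seeing the data, HAMP was at 1.49, PCBP2 at 0.17 and A2M at 0.11. Leave-outs ranged in liver from -0.21 to 0.59 for CP, -0.36 to 0.47 for TFR2 and -1.62 to 0.28 for HAMP, and in muscle from -0.23 to 0.011 for FTH1, -0.42 to 0.0016 for HMOX1 and -0.055 to 0.20 for FTL. For the difference they ranged from -0.24 to 0.78 for TFR2 and -0.41 to 0.053 for TFRC. Between tissues, FTL passed with edgeR (1.83) and DESeq2 (1.79), SLC11A2 did not pass without the filter on low values, and DESeq2 gave FTH1 no adjusted p. edgeR put the median of all genes at 0.20 between tissues, against 0.06 with limma, and no direction of the set turned. The causes of these changes were not tested.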
